A study of Homo sapiens with 6 samples.

Results

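The data of 9 genes that mark the kidney proximal tubule or the renal lineage are described here: LRP2, CUBN, AMN, AQP1, ANPEP, GGT1, MME, PAX8 and PAX2. They were chosen by gene symbol and not by a measured value, although earlier results of these data were known. All 9 were found among the 31369 genes of the count table. The RNA came from HK-2 cells, an established human line of proximal tubule epithelial cells, with 3 samples that overexpressed *PPM1K* (OE) and 3 control samples (NC). *PPM1K* encodes a mitochondrial phosphatase that activates the breakdown of branched-chain amino acids, and the study asked what its overexpression from a transfected plasmid does to the transcriptome. The labels give the NC samples as wild type and the OE samples as *PPM1K* overexpression, all at day 10. The treatment entry reads chronic kidney disease in all 6 samples, NC included, and no other agent separates the groups in the labels. The sample titles name a short hairpin for both groups, against the genotype entries. The cell line entries carry a running number after HK that differs between samples, while the cell type entries name HK-2 throughout. The labels do not say whether the samples of a group came from separate cultures, so p-values measure only the spread between these samples, which may be technical.

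The proximal tubule takes back most of what the glomerulus filters. Megalin (LRP2) and cubilin (CUBN) are large receptors at the foot of its brush border that take up filtered proteins, and amnionless (AMN) carries cubilin to the membrane. AQP1 is the water channel of this segment, and ANPEP, GGT1 and MME are peptide-cleaving enzymes on its microvilli. PAX8 and PAX2 are paired box transcription factors that specify the kidney lineage during development. Cultured tubule lines are known to keep some of these features and to lose others.

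The targeted gene followed the genotype entries and not the titles. In NC its counts were 37, 19 and 53, and those in OE were 3294, 3531 and 2919, each in the order of replicates 1, 2 and 3, with a log2 fold change of OE over NC of 6.39 (standard error (SE) 0.13, adjusted p = 1.1e-18, edgeR's quasi-likelihood test, adjusted by Benjamini-Hochberg over all tested genes). The total count per sample was 34635770 to 39850802. NC replicate 2 stood apart, with 3551 genes that had counts in no other sample, against 449 to 766 in each of the others. The paper also lists larger shares of intronic, intergenic and antisense reads for it than for any other sample. Some results without it are given below.

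The 250 bases before the annotated start are shown for 3 of the 9 genes, in RefSeq's annotation of GRCh38.p14 and on the strand of the gene. PAX8 is shown because it was the one highly expressed gene of the group, and LRP2 and CUBN because they were at or near 0. AQP1 was also near 0, and its window is not shown. Capitals mark a match to CAAAGT, a half-site of the HNF4 factors, searched on both strands.
PAX8 chr2:113278922-113279171, minus strand: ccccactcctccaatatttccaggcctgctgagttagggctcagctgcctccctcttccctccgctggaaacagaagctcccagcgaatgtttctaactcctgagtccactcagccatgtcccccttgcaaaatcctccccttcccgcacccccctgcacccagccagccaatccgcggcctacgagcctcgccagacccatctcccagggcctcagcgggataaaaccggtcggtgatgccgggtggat
LRP2 chr2:169362535-169362784, minus strand: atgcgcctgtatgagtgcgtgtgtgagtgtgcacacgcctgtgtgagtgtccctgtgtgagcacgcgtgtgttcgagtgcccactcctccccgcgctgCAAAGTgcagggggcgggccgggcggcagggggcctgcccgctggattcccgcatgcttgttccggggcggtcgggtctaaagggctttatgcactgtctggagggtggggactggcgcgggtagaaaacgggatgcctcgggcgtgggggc
CUBN chr10:17129812-17130061, minus strand: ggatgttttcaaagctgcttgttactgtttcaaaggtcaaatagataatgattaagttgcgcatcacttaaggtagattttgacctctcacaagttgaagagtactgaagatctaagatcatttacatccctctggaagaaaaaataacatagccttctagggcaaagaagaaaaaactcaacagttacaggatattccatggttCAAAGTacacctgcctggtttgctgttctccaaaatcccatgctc
The PAX8 window held no match to this half-site, nor to TATAAA on its own strand. The LRP2 and CUBN windows each held CAAAGT, as did those of AMN and the first start of PAX2. Those of AQP1, ANPEP, GGT1 and MME held none. CAAAGT was found in 10.3% of all 35116 windows of this length. TATAAA stood only in that of AQP1 among the 9 genes and in 6.8% of all windows. The number of CpG dinucleotides was 21 for LRP2, 11 for PAX8 and 1 for CUBN, against a median of 11 over all windows, so LRP2 and CUBN lay on opposite sides of it. A match describes the letters of the window and not binding of a factor.

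PAX8 stood far above the other genes of the group. FPKM is the deposited level per transcript length and per mapped fragments of each library. For PAX8 in NC it was 27.7 ± 1.20 (SD, n = 3), higher than 95.6% of the genes in the FPKM table. Among the protein-coding genes of that table it was higher than 92.2%. The next gene, GGT1, was at 0.283 ± 0.0651 FPKM in NC, so PAX8 was 97.8 times higher, and 8 of the 9 genes were under 1 FPKM or not listed there. In NC the order of mean FPKM was PAX8, GGT1, MME, AMN, PAX2, ANPEP, AQP1 and CUBN, with LRP2 outside the FPKM table. The NC samples of GGT1 and MME overlapped in this order, as did those of MME and AMN and those of AQP1 and CUBN. In OE MME took the second place, and PAX8 was 93.9 times above it. By counts PAX8 held 96.9% of the reads of the 9 genes in NC and 97.4% in OE. Of the 9 genes, PAX8 was therefore high, while PAX2 and the receptors, channel and enzymes among them were low or at 0. The level of GGT1 is uncertain, since an overlapping gene on the same strand, KB-1995A5.6, was at 19.3 FPKM in NC. It covers 56.5% of the GGT1 exon bases.

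**Figure D1:**
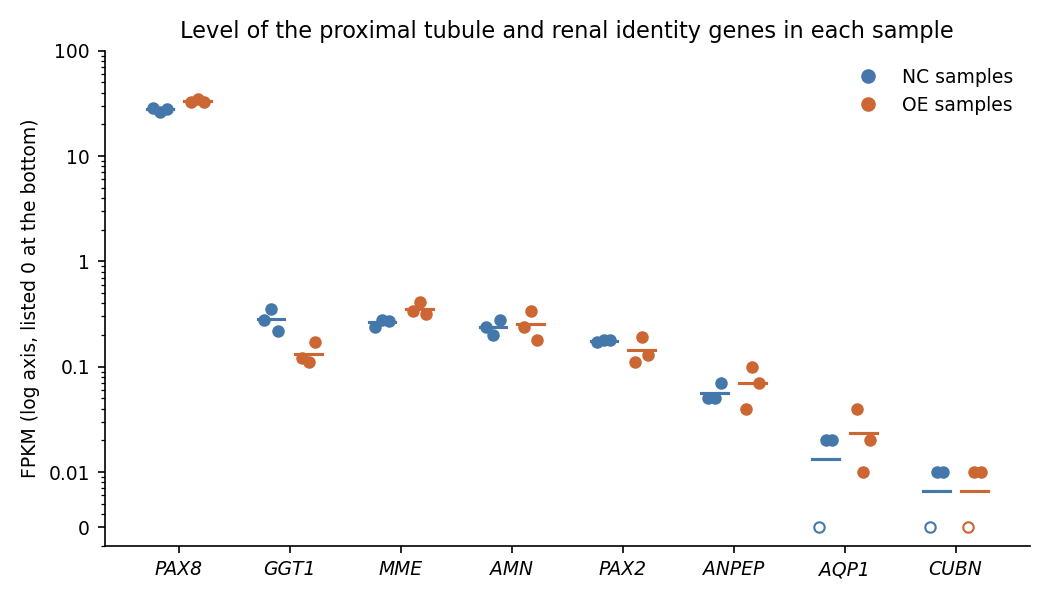
FPKM of 8 of the 9 genes in each of the 6 samples on a log axis, in the order of their NC means, with points for samples, bars for group means and open circles for a listed value of 0; LRP2 is not in the FPKM table. PAX8 lies between 26.43 and 35.11 FPKM, and no value of any other gene is above 0.41.

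In the comparison of OE with NC, 6 of the 9 genes passed edgeR's filter on low counts and were tested. Past the test, at an adjusted p under 0.05 in edgeR's quasi-likelihood fit over all 15878 tested genes, PAX8 and MME rose, GGT1 fell, and AMN, ANPEP and PAX2 did not pass. Over all tested genes 24.9% passed as higher and 23.7% as lower, so 2 and 1 of 6 are near the background. With the study's second criterion, a fold above 2 or below 0.5, GGT1 alone was called, as lower, beside 3.79% of all tested genes called lower and 1.73% called higher. The CPM of the groups, counts scaled to library size after edgeR's scaling, did not overlap for PAX8, MME and GGT1, 3 of the 6, against 55.3% of all tested genes. The median log2 fold change of the 6 genes was 0.15 against −0.0032 over all tested genes. In these bulk samples, fewer cells that express a gene and less RNA of it per cell cannot be told apart.

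**Figure D2:**
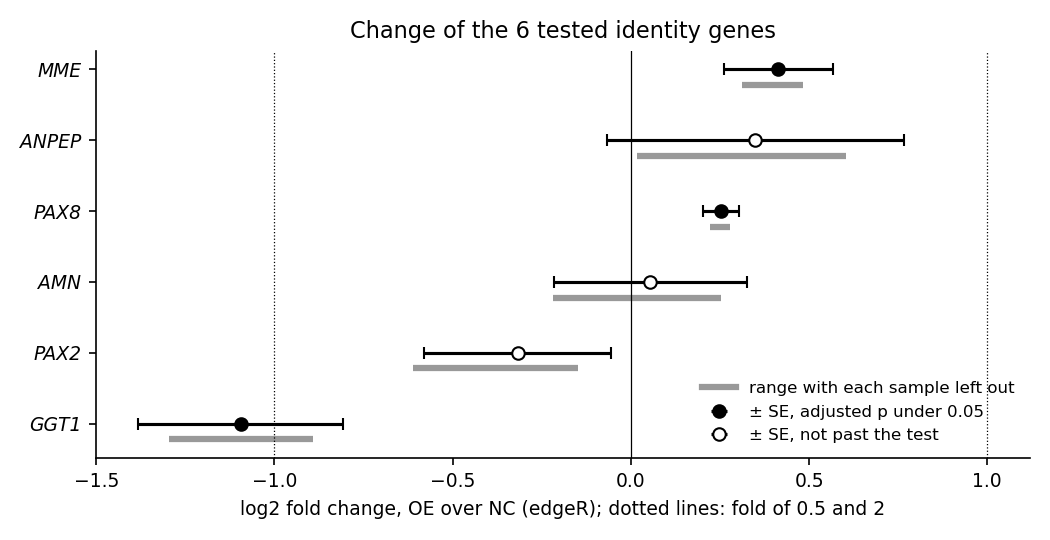
Log2 fold change of OE over NC with its SE (points with bars) for the 6 tested genes, filled where the adjusted p was under 0.05, and the range of the estimate with each of the 6 samples left out in turn (grey). GGT1 at −1.09 is the one gene past the dotted line of a fold of 0.5, PAX8 has the narrowest interval, and the grey range of AMN crosses 0.

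Among the endocytic receptors, LRP2 and CUBN were barely counted. LRP2 (ENSG00000081479.15, chr2:169127109-169362534, minus strand, GENCODE release 44 on GRCh38) had 1 count in NC replicate 2 and 0 in the other 5 samples. A count of 0 allows up to 3 counts, which is 0.0759 to 0.0862 CPM in those samples, for counting error only. CUBN (ENSG00000107611.16, chr10:16823966-17129811, minus strand) had 0, 3 and 3 counts in NC and 2, 5 and 6 in OE. The groups overlapped, and the exact two-sided permutation test on CPM gave p = 0.3, where 3 samples against 3 cannot go below 0.1. Without the filter on low counts, edgeR gave adjusted p = 0.56 for both. At this depth neither a fall nor a small rise of these receptors was detectable.

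AMN, the membrane partner of cubilin, was counted in every sample. AMN (ENSG00000166126.11, chr14:102922663-102933596, plus strand) had 38, 33 and 47 counts in NC and 41, 61 and 29 in OE. OE replicates 2 and 3 were the highest and the lowest of the 6, so the groups overlapped, with 0.240 ± 0.0400 FPKM in NC and 0.253 ± 0.0808 in OE (SD, n = 3). Its log2 fold change was 0.05 (SE 0.27, adjusted p = 0.88), and it turned to −0.05 without NC replicate 2 and to −0.22 without OE replicate 2. AMN shares 17.7% of its exon bases with CDC42BPB on the opposite strand, a kinase gene with 5638 to 6485 counts per sample, and since the use of strand in the counting is not given, the AMN counts are uncertain.

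Most genes of a list of partners were at 1 FPKM or more in NC, although the receptors LRP2 and CUBN were at or near 0. All 13 genes of this list, from the chaperone LRPAP1 and the adaptor DAB2 to endosome and recycling genes, were tested. Of them 11 had an NC level of 1 FPKM or more. Of the 13, 3 rose, 3 fell and 7 did not pass, with a median log2 fold change of −0.02. That is 23.1% in each direction, near the 24.9% and 23.7% of all tested genes. The number that rose was 2 without NC replicate 2 or NC replicate 3, and 1 without OE replicate 2. CLCN5, the endosomal chloride exchanger mutated in Dent disease, rose from 0.377 ± 0.0153 to 0.657 ± 0.127 FPKM (log2 fold change 0.79, SE 0.13, adjusted p = 3.5e-05). CTNS, the lysosomal cystine exporter, rose by 0.36 on the log2 scale (SE 0.11, adjusted p = 0.0094). RAB11A, a GTPase of recycling endosomes, fell from 10.9 ± 0.285 to 8.10 ± 0.333 FPKM (log2 fold change −0.45, SE 0.06, adjusted p = 1.3e-06). ATP6V0A4, a proton pump subunit, was the one partner called lower, at −1.02 (SE 0.33, adjusted p = 0.014) with a level of 0.213 FPKM in NC. The partners with the highest NC levels, GIPC1 with 22.8 FPKM and RAB5A with 11.9, had log2 fold changes of −0.07 and −0.06 and did not pass.

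AQP1 was at the edge of detection. AQP1 (ENSG00000240583.14, chr7:30911853-30925517, plus strand) had 0, 3 and 3 counts in NC and 5, 1 and 2 in OE, with overlapping groups and an exact two-sided permutation p of 0.9. Without the filter, edgeR gave an adjusted p of 0.87. It shares 27.9% of its exon bases with RP5-877J2.1 on the same strand, which had a single count in all samples.

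Of the 3 brush border enzymes GGT1 fell, MME rose with a call that several fits lost, and ANPEP did not pass. GGT1, gamma-glutamyltransferase, which cleaves extracellular glutathione (ENSG00000100031.19, chr22:24594811-24629005, plus strand), had 45, 60 and 38 counts in NC and 21, 21 and 29 in OE. Each OE sample was below each NC sample in CPM. Its level fell from 0.283 ± 0.0651 to 0.133 ± 0.0321 FPKM (SD, n = 3; log2 fold change −1.09, SE 0.29, adjusted p = 0.0034). GGT1 stayed past the test without each sample in turn, at −1.29 to −0.89, but the fold no longer went below 0.5 without NC replicate 2, at −0.89, or without OE replicate 2, at −0.98.

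Reads of GGT1 cannot be assigned with certainty, since it has near-identical copies and overlaps another annotated gene. Of the copies, GGT4P had 24, 23 and 20 counts in NC and 22, 19 and 16 in OE, and its log2 fold change of −0.32 did not pass (adjusted p = 0.44). GGT2, GGT3P, GGT8P, GGTLC1, GGTLC2, GGTLC4P and GGTLC5P had 0 to 10 counts per sample, and the more distant GGT5 and GGT6 had 0 to 3. GGT1 summed with the 8 copies, a step added after the data were seen, gave 76, 104 and 76 counts in NC and 58, 52 and 56 in OE, and a log2 fold change of −0.71 (adjusted p = 0.0059, in a range of 0.00046 to 0.046 over the alternatives for GGT1 other than the test against a fold of 2, which it did not pass). KB-1995A5.6, an annotated protein-coding gene on the same strand that overlaps most of GGT1, covers 56.5% of its exon bases. It had 1601 to 2381 counts per sample and fell by 0.43 on the log2 scale (SE 0.06, adjusted p = 8.1e-06), and its part in the GGT1 counts was not tested. GGT7, a family member that is not a close copy, had 173 to 278 counts per sample and a log2 fold change of 0.13 (SE 0.14, adjusted p = 0.46).

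MME, neprilysin, an endopeptidase that cleaves small peptides (ENSG00000196549.13, chr3:155024124-155183704, plus strand), had 90, 106 and 103 counts in NC and 134, 169 and 122 in OE. All OE samples lay above all NC samples. Its level rose from 0.263 ± 0.0208 to 0.357 ± 0.0473 FPKM (SD, n = 3), 1.33 times by the fit (log2 fold change 0.41, SE 0.15, adjusted p = 0.031). The call was close to the threshold and depended on single samples: the adjusted p was 0.10 without NC replicate 1, 0.055 without NC replicate 3 and 0.15 without OE replicate 2, in a range of 0.02 to 0.15 over the samples left out. With DESeq2 the log2 fold change was 0.42 and the adjusted p 0.093, in a range of 0.032 to 0.18 over the other alternatives.

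ANPEP, aminopeptidase N (ENSG00000166825.15, chr15:89784895-89815401, minus strand), was counted 10, 10 and 13 times in NC and 9, 22 and 14 times in OE. The groups overlapped, and OE replicates 2 and 1 were the highest and the lowest of the 6 in CPM. The log2 fold change was 0.35 (SE 0.42, adjusted p = 0.51) and 0.02 without OE replicate 2.

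The paired box genes differed in level more than in change. PAX8 (ENSG00000125618.18, chr2:113215997-113278921, minus strand) had 7928, 7544 and 8016 counts in NC and 9616, 10934 and 9297 in OE, or 228, 214 and 223 CPM against 260, 277 and 256. All OE samples lay above all NC samples, and the level rose from 27.7 ± 1.20 to 33.5 ± 1.41 FPKM (SD, n = 3). The rise was 1.19 times by the fit (log2 fold change 0.25, SE 0.05, adjusted p = 0.00027). It passed under every alternative tried except the test against a fold of 2, at 0.22 to 0.28 with each sample left out in turn. On the opposite strand PAX8-AS1, a long noncoding RNA, covers 22.4% of the PAX8 exon bases. It had 13, 16 and 10 counts in NC and 69, 50 and 63 in OE, and its log2 fold change was 2.13 (SE 0.30, adjusted p = 5.8e-06). Its groups did not overlap. Whether reads of one of these genes were counted for the other was not tested.

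PAX2 (ENSG00000075891.23, chr10:100735396-100829944, plus strand) had 42, 45 and 46 counts in NC and 28, 54 and 32 in OE. OE replicate 2 was the highest of all 6 samples and the other OE samples were the lowest, so the groups overlapped. Its level was 0.177 ± 0.00577 FPKM in NC and 0.143 ± 0.0416 in OE (SD, n = 3), with a log2 fold change of −0.32 (SE 0.26, adjusted p = 0.33). It was −0.61 without OE replicate 2 (adjusted p = 0.096) and −0.15 without OE replicate 1 (adjusted p = 0.70), in a range of 0.096 to 0.70 over the samples left out. Of the other paired box genes, PAX6, a regulator of eye and pancreas development, fell from 2.39 to 1.66 FPKM (log2 fold change −0.55, SE 0.07, adjusted p = 5.9e-07). PAX9 had a mean of 8.17 counts and a log2 fold change of 0.09 (SE 0.55, adjusted p = 0.90).

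The wider set of tubule genes was lower in OE more often than higher. In 3 further lists, of brush border, transporter and metabolic genes of the proximal tubule, 32 of 81 listed genes were tested, of which 3 rose, 21 fell and 8 did not pass. The share that fell was 65.6%, against 23.7% of all tested genes, and the median log2 fold change was −0.45. The lists were chosen with earlier results of these data known, so this share is a description and not a test. A gene with few reads can enter the test through its NC samples alone, so the count was repeated for genes that averaged 100 counts or more, added after the data were seen. Of 16 such genes 3 rose and 12 fell, 75.0%, against 30.8% and 25.9% of 11771 tested genes of that depth. With each sample left out in turn, 17 to 20 of the 32 fell.

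**Figure D3:**
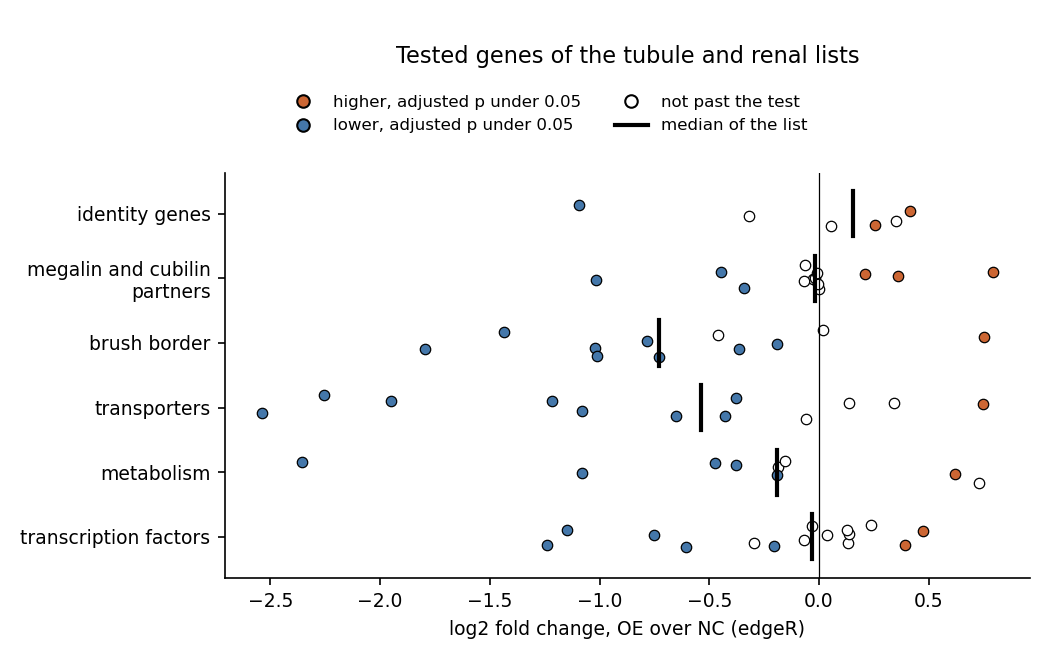
Log2 fold change of OE over NC of every tested gene of the 6 groups of genes, one point per gene, coloured by the direction of those with an adjusted p under 0.05, with a bar at the median of each group. The medians of the brush border and transporter lists are −0.73 and −0.54, while those of the megalin and cubilin partners and of the transcription factors are −0.02 and −0.03.

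Of the brush border list, 8 of 11 tested genes fell and 1 rose, and 8 fell with any one sample left out. The shares are 72.7% and 9.09%, against 23.7% and 24.9% of all tested genes. The 1 gene that rose was RAB17, named after its values were seen. It went from 1.08 ± 0.101 to 1.84 ± 0.0208 FPKM (log2 fold change 0.75, SE 0.11, adjusted p = 6.7e-06). PDZK1, the scaffold that holds transporters at the microvillus, was at 33.8, 32.63 and 31.39 FPKM in NC and 10.71, 13.33 and 12.64 in OE. The groups were far apart, and its log2 fold change was −1.44 (SE 0.07, adjusted p = 2.7e-13). USH1C, harmonin, a scaffold of the links between microvilli, fell from 2.12 ± 0.165 to 1.07 ± 0.0503 FPKM (log2 fold change −1.01, SE 0.10, adjusted p = 6e-08). NAPSA, an aspartic protease, fell by 1.02 on the log2 scale (SE 0.30, adjusted p = 0.0072). EZR, ezrin, which ties actin to the membrane and is not confined to the tubule, was the most abundant gene of the list and fell from 523 ± 30.1 to 465 ± 6.93 FPKM (log2 fold change −0.19, SE 0.05, adjusted p = 0.0052).

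Of the transporter list, 12 of 32 genes were tested, of which 8 fell and 1 rose. These are 66.7% and 8.33%, against 23.7% and 24.9% of all tested genes. The number that fell was 6 without NC replicate 2 or OE replicate 1, 7 without OE replicate 3 and 5 without OE replicate 2. SLC17A1, a sodium phosphate and urate transporter, was at 1.79, 1.51 and 1.39 FPKM in NC and 0.27, 0.26 and 0.28 in OE, with a log2 fold change of −2.54 (SE 0.21, adjusted p = 3.8e-09). SLCO4C1, an organic anion transporter of the basolateral side, fell from 5.27 ± 0.294 to 1.38 ± 0.0404 FPKM (log2 fold change −1.95, SE 0.08, adjusted p = 6.1e-14). SLC6A13, a GABA and taurine transporter, and SLC17A3, a relative of SLC17A1, fell by 2.26 and 1.22 on the log2 scale (SE 0.36 and 0.15, adjusted p = 2.4e-05 and 1.1e-06). SLC6A13 had 6, 8 and 10 counts in OE and passed the filter through its NC samples, with 42, 32 and 35. ABCC4, an efflux pump, fell by 0.38 (SE 0.08, adjusted p = 0.00068). The sum of FPKM over the transporter list was 13.72 to 14.1 in NC and 6.86 to 7.96 in OE, and that of the brush border list, mostly EZR, was 543 to 604 and 484 to 499. The sums of the other lists overlapped for the metabolic genes, at 20.78 to 23.22 and 21.45 to 23.01, and for the megalin and cubilin partners, at 78.49 to 87.57 and 78.66 to 82.13.

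Of the metabolic list, 9 of 27 genes were tested, of which 5 fell and 1 rose. The shares are 55.6% and 11.1%, against 23.7% and 24.9% of all tested genes. The number that fell was 3 without NC replicate 1, OE replicate 1 or OE replicate 3. It was 4 without NC replicate 2 or NC replicate 3, and 6 without OE replicate 2. Of the 4 tested genes that averaged 100 counts or more, 2 fell and 1 rose. ALDH8A1, an aldehyde dehydrogenase, and UPB1, of pyrimidine breakdown, fell by 2.36 and 1.08 on the log2 scale (SE 0.40 and 0.21, adjusted p = 4.8e-05 and 0.0002). ALDH8A1 had 8, 4 and 7 counts in OE and passed the filter through its NC samples, with 37, 25 and 31. GATM, the first enzyme of creatine synthesis, fell by 0.47 (SE 0.17, adjusted p = 0.025), and ASS1, of arginine synthesis, fell from 10.6 to 9.38 FPKM (log2 fold change −0.19, SE 0.07, adjusted p = 0.027). MIOX, the inositol oxygenase of the tubule, went the other way, from 4.79 ± 0.558 to 7.46 ± 0.506 FPKM (log2 fold change 0.62, SE 0.10, adjusted p = 1.6e-05).

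Among other renal transcription factors, SALL1 and MAF fell, while most of those tested did not pass. Of the 23 listed factors 15 were tested, of which 2 rose, 5 fell and 8 did not pass. These are 13.3% and 33.3%, against 24.9% and 23.7% of all tested genes. The number that fell was 3 without NC replicate 3 or OE replicate 1, and the number that rose was 1 without any one NC sample or OE replicate 2. SALL1, of the nephron progenitors, was at 7.49, 7.4 and 6.56 FPKM in NC and 4.33, 3.92 and 4.66 in OE. The groups did not overlap, and the level fell from 7.15 ± 0.513 to 4.30 ± 0.371 FPKM (log2 fold change −0.75, SE 0.07, adjusted p = 4.5e-08). MAF fell from 1.10 to 0.470 FPKM (log2 fold change −1.24, SE 0.13, adjusted p = 9.3e-08). LHX1, of the early nephron, was at 14.1 ± 0.227 and 15.7 ± 1.26 FPKM (log2 fold change 0.13, SE 0.06, adjusted p = 0.051). HNF4A, which drives proximal tubule genes in the adult kidney and is named here after its values were seen, had 2 to 8 counts per sample and was not tested. The 2 factors that rose, also named after their values were seen, were HNF4G and HOXA11. Their log2 fold changes were 0.48 and 0.39 (SE 0.18 and 0.13, adjusted p = 0.033 and 0.02).

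**Figure D4:**
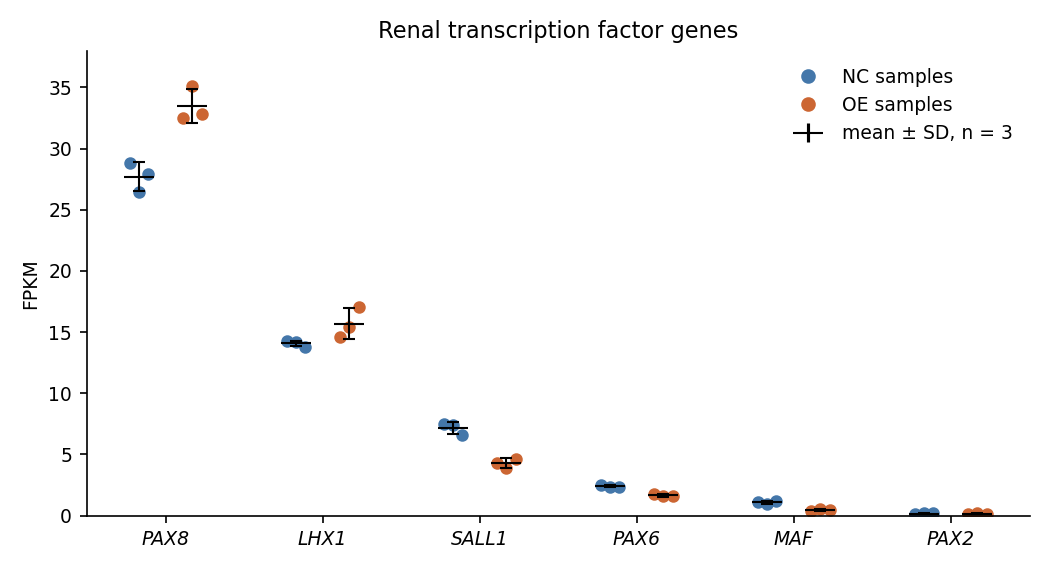
FPKM of PAX8, PAX2 and 4 other transcription factor genes in the 3 NC and 3 OE samples, with points for samples and bars for the mean ± SD. PAX8 is at 27.7 FPKM in NC and 33.5 in OE, SALL1 at 7.15 and 4.30, and PAX2 stays under 0.2 FPKM.

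Markers of other nephron segments and of other kidney cells were mostly near 0, and some moved between the groups. CLDN16, a tight junction gene of the thick ascending limb, rose from 1.52 to 3.03 FPKM (log2 fold change 0.97, SE 0.11, adjusted p = 3.1e-07), and was the 1 tested gene of the 6 on its list. The summed FPKM of that list was 1.47 to 1.60 in NC and 2.77 to 3.44 in OE. SCNN1A and AVPR2, of the collecting duct, fell by 0.68 and 0.88 on the log2 scale (SE 0.14 and 0.33, adjusted p = 0.00049 and 0.034), and the sum of their list was 1.53 to 1.68 and 0.99 to 1.16 FPKM. With any one sample but OE replicate 2 left out, 1 of these 2 genes passed. The distal convoluted tubule list summed to 0.02 to 0.04 FPKM in NC and 0 in OE, where SLC12A3 had 6, 4 and 6 counts and then 0, 1 and 1. The intercalated cell list summed to 0.05 to 0.1 and 0.07 to 0.22, led by ATP6V0D2 with 3, 7 and 3 and then 25, 8 and 10 counts. No gene of these last 2 lists was tested.

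Of the podocyte list, SYNPO and PODXL, which epithelial cells can also express, had log2 fold changes of −0.36 and 0.29 (SE 0.05 and 0.08, adjusted p = 1.7e-05 and 0.0059), and the sum was 8.54 to 9 and 7.74 to 8.45 FPKM. Of the endothelial list, PECAM1 and VWF rose by 0.52 and 0.41 (SE 0.20 and 0.15, adjusted p = 0.034 and 0.031), with a sum of 0.58 to 0.73 and 0.80 to 0.94. Neither passed without NC replicate 1 or 2, OE replicate 2 or OE replicate 3. Of the fibroblast list, LUM and COL1A1 fell by 1.94 and 0.99 (SE 0.17 and 0.10, adjusted p = 6.4e-09 and 5.7e-08), and the sum was 3.10 to 3.33 and 1.32 to 1.75 FPKM. The leukocyte list summed to 0.25 to 0.38 FPKM in NC and 0.12 to 0.18 in OE, led by CD14 with 2 to 17 counts per sample. The part of these other markers in the results on the tubule genes was not tested.

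Genes with the pattern most like that of PAX8 over the 6 samples, by Pearson's r of log2 CPM among 11769 candidates, were AKT1S1 with r = 0.999, COASY with 0.998 and CNDP2 with 0.998. Those most like GGT1 were CEP162 with r = 0.998, PPFIBP1 with 0.997 and AKAP9 with 0.996. These values describe likeness only, since the 6 points fall into the 2 groups compared and share their libraries.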

How the data were processed

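The study extracted total RNA from HK-2 cells, prepared stranded libraries and sequenced them as paired ends. The authors trimmed reads, mapped them to GRCh38 by HISAT2 and took the unique alignments for counting. These deposited counts cover 31369 genes and are not normalized. The authors computed the deposited FPKM, rounded to 2 decimals, for 30896 genes from the same reads. The submitters' processing notes also name mm10, with no role given. The annotation, the counting program and whether counting used strand are not given in the sources used here, so counts of overlapping or near-identical genes are uncertain.

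From the counts, edgeR 4.0.16 (R 4.3.3) was run with filterByExpr, TMM scaling and the quasi-likelihood test, adjusted by Benjamini-Hochberg over 15878 tested genes. Past the test means an adjusted p under 0.05, and called adds a fold above 2 or below 0.5. Total counts of 34635770 to 39850802 per sample leave counting error large for genes under 100 counts. DESeq2 1.42.0 and limma 3.58.1 on log2(FPKM + 1) and log2(FPKM + 0.1) for genes of at least 0.1 FPKM were alternatives, as were other scalings and filters, a test against a fold of 2, the replicate number as a block and each sample left out. The fits were also run on simulated counts, with larger changes than those of the 6 tested genes of the group. That run does not bear on small changes or on genes with few counts. Replicates of a group differed by more than sampling noise, with a mean chi-square per gene of 5.13 to 11.8. None was thus the same library sequenced again, but separate libraries of one culture cannot be told from separate cultures this way.

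Genes and lists were chosen with earlier results of these data known. Besides the 9 genes, the text names per list up to 4 genes past the test with the largest change and a mean count of at least 10, and the 2 with the highest NC level. For markers of other segments and cell types it names the highest gene and those past the test. For the copies and overlapping genes it names all with counts, and for likeness the 3 genes of highest r. CDC42BPB, RP5-877J2.1, KB-1995A5.6, RAB17, SLC16A9, HNF4A, HNF4G and HOXA11 lie outside this rule. Some results for genes this rule names are not reported here. Coordinates are from GENCODE release 44, promoter windows from RefSeq. Plots were made in Python 3.11.15 (pandas 2.3.3, matplotlib 3.10.9).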

Additional observations from a re-analysis of the deposited data

How the results depend on the processing

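PAX8 and GGT1 kept their direction and stayed past the test under the other test, scalings, filters and FPKM fits, at log2 fold changes of 0.22 to 0.27 and −1.13 to −0.18, the smallest on log2(FPKM + 1), which compresses low values. With each sample left out, PAX8 was at 0.22 to 0.28 and GGT1 at −1.29 to −0.89. MME was not past the test with DESeq2 (log2 fold change 0.42), limma on log2(FPKM + 1) with or without the filter (0.10 in both) or limma on log2(FPKM + 0.1) (0.33), and with each sample left out it was 0.31 to 0.48; the cause was not tested. Under those 4 fits the number of the 9 genes past the test as higher was 1, and with each sample left out it was 1 to 2, and 1 gene stayed lower. AMN, never past the test, reversed to −0.05 without NC replicate 2 and −0.22 without OE replicate 2, in a range of −0.22 to 0.25. ANPEP ranged from 0.02 to 0.60 and PAX2 from −0.61 to −0.15. ANPEP has no value at 10 counts in every sample or in the filtered FPKM fits, where it was removed.

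The 5 lists are those of megalin and cubilin partners, brush border, transporter and metabolic genes, and renal transcription factors. Of their 60 tested genes 8 rose and 29 fell. The shares were 13.3% and 48.3%, against 24.9% and 23.7% of all 15878 tested genes. With each sample left out, 5 to 8 genes of the lists rose and 22 to 26 fell. Over all tested genes 3949 rose and 3766 fell, with 3512 to 3835 and 3272 to 3691 when each sample was left out. Upper quartile scaling gave 3463 and 4256, which turned the balance of directions. Limma on log2(FPKM + 1) without a filter gave 17 genes of the 5 lists and 2499 of all 30896 genes as lower. The test against a fold of 2 left 0 of the 9 genes in either direction. It left 0 and 5 of the 60 tested genes of the 5 lists as higher and lower, and 68 and 118 of all 15878 tested genes. This test is edgeR's glmTreat, stricter by construction. At an unadjusted p under 0.05 it also left 0 of the 9 genes, with 0 and 8 of the 60 genes of the 5 lists. The unadjusted count over all tested genes was not made.

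The groups share replicate numbers 1 to 3. For samples of the same number the deviations from the mean of the group correlated at −0.00319, −0.0663 and −0.0542. Of the NC samples, 0 of 3 correlated best with its own number. No pairing by number was thus seen, although a weak one could be missed with 3 samples per group. With the replicate block the log2 fold changes were 0.25 for PAX8, 0.41 for MME, −1.09 for GGT1, 0.03 for AMN, 0.32 for ANPEP and −0.34 for PAX2, and 3607 genes rose and 3458 fell, so no call among the 9 genes changed. Depth limits LRP2, CUBN and AQP1, which the filter on low counts removed, and leaves wide errors for ANPEP. The median log2 change of the tested genes stayed between −0.0412 and 0.0194 under every scaling.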
